A study of Macaca mulatta with 6 samples.

Results

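Y RNAs, vault RNAs and 7SK are short noncoding RNAs made by RNA polymerase III, and they were examined in small RNA libraries made from the testes of 6 wild-type juvenile rhesus monkeys. The members were all genes of the small RNA table named Y_RNA, Vault or 7SK, selected on a raw count of at least 10 summed over the 6 libraries of both groups. This rule took 42 of the 3083 genes in the table, namely 29 of 292 Y RNA genes, 3 of 5 vault RNA genes and 10 of 94 7SK genes. The remaining 349 genes with these names had fewer counts. Vehicle was infused for 48 h into animals 7, 9 and 11, aged 24, 14 and 15 months. Gonadotropin, a pulsatile combination of follicle-stimulating and luteinizing hormones, was infused for 48 h into animals 8, 10 and 12, aged 22, 14 and 15 months. RNA came from fragments of the right testis, and libraries are called by group and animal number. In such bulk tissue, fewer cells of a type and less RNA per cell cannot be told apart.

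Y RNAs are stem-loop RNAs bound by the Ro60 protein, which takes part in RNA quality control, and they are also known for a role in the start of DNA replication. In primates a small cluster of functional Y genes stands beside a large number of scattered pseudogene copies. Vault RNAs take their name from the vault, a large cytoplasmic ribonucleoprotein particle, and some are known to bind the autophagy receptor p62. Whether each gene named Vault here gives an RNA of that particle was not tested. 7SK is the scaffold of a nuclear particle that holds the elongation kinase P-TEFb inactive through HEXIM proteins, and it too has many pseudogene copies. In small RNA libraries these longer RNAs are represented by reads from whichever parts were captured.

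Total counts ran from 2146412 to 3170784 per library. Genes of the miRNA class held 91.9% (vehicle 9; Wilson 95% interval 91.8 to 91.9) to 96.9% (vehicle 7; 96.9 to 96.9) of the counts, and such intervals cover counting error only. Of 7 testis-rich miRNAs listed as a check of the tissue, 3 were found by name, with sums of 6877 to 11569 CPM (the count scaled to a fixed library total) in vehicle and 7347 to 17250 in gonadotropin, and none of these was at 0. The gonadal miRNA mir-202 was not matched by name. Sums of the 3 meiotic germ cell miRNAs were 12.5 to 53.6 CPM in vehicle and 36.6 to 75.5 in gonadotropin. The endothelial miRNA mir-126 was at 4447 to 5854 and 5767 to 7983 CPM in the same order, and the 5 blood miRNAs summed to 2221 to 5872 and 4645 to 5309 CPM. Among the blood miRNAs, mir-223 (242 to 511 against 605 to 893 CPM) and mir-486 (15.7 to 64.1 against 65.7 to 74.1 CPM) were higher in every gonadotropin library than in any vehicle library. The groups overlapped for the most abundant of them, mir-451 (1670 to 4721 against 3301 to 4031 CPM). They also overlapped for mir-144 (87.6 to 319 against 201 to 386 CPM) and mir-142 (90.1 to 271 against 177 to 357 CPM). Muscle miRNAs (4 of 5 found) summed to 29.3 to 36.1 and 34 to 38.8 CPM, 2 neural miRNAs to 90.6 to 190 and 137 to 156 CPM, and the liver miRNA mir-122 was at 0.736 to 1.26 CPM. The part of such cells in the results below was not tested.

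The members had unequal depth. Totals over the 6 libraries ran from 10 to 1078 counts for Y RNAs (median 22), from 84 to 849 for vault RNAs and from 11 to 70 for 7SK (median 18.5). At the edge of the rule, 2 Y RNA genes had 10 counts and 3 had 9, 3 7SK genes had 11 and 3 had 9, and the vault gene next below the lowest member had 2. The members held 92.4% of the Y RNA counts, 99.7% of the vault counts and 58.6% of the 7SK counts. Annotated lengths were 94 to 168 bases for Y RNA members, 89 to 101 for vault RNAs and 207 to 331 for 7SK. No member overlapped another gene of the table by coordinates (0 of 42).

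Of the 42 members, 15 passed the filter on low counts and were tested: 11 Y RNAs, 3 vault RNAs and 1 7SK gene. In the edgeR quasi-likelihood test, 0 of them passed after Benjamini-Hochberg adjustment at 0.05, where 0.139% of all 717 tested genes were called. One Y RNA gene had an unadjusted p under 0.05, against 4.46% of all tested genes. DESeq2, the edgeR exact test and limma voom also called 0 members, where they called 3, 3 and 0 of all 717 tested genes. Each gave 2 members with an unadjusted p under 0.05, and the share over all genes is not given for these tests. In the authors' deposited table, 29 members were listed and the lowest adjusted p among them was 1.

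Y RNA counts summed over the 29 members were 145, 506.9 and 269 CPM for vehicle 7, 9 and 11 and 387, 525 and 362 CPM across gonadotropin 8, 10 and 12. These levels are CPM scaled between libraries by TMM. The lowest library was vehicle 7, and vehicle 9 stood between gonadotropin 10 and the other gonadotropin libraries, so the groups overlapped. The group levels were 307 ± 184 and 424 ± 87.7 CPM (SD, n = 3 each), a log2 ratio of 0.47 against a spread of 0.67 (SD of log2 sums within groups). The ratio was 0.16 without vehicle 7 and 0.98 without vehicle 9.

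Vault RNA counts summed over 3 members were 24.0, 85.9 and 40.8 CPM in the vehicle libraries, in the same order, and 54.9, 123 and 35.9 CPM in the gonadotropin libraries. Vehicle 9 and gonadotropin 10 were high in this sum, gonadotropin 12 lay below vehicle 11, and the groups overlapped. The log2 ratio of the group means was 0.50 with a spread of 0.91, and it turned to -0.13 without gonadotropin 10. The 10 7SK members summed to 10.5, 26.9 and 8.40 CPM for vehicle and 14.4, 16.6 and 7.34 CPM for gonadotropin libraries. Their log2 ratio of -0.25 (spread 0.77) turned to 0.36 without vehicle 9 and to 0.04 without gonadotropin 12.

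**Figure D1:**
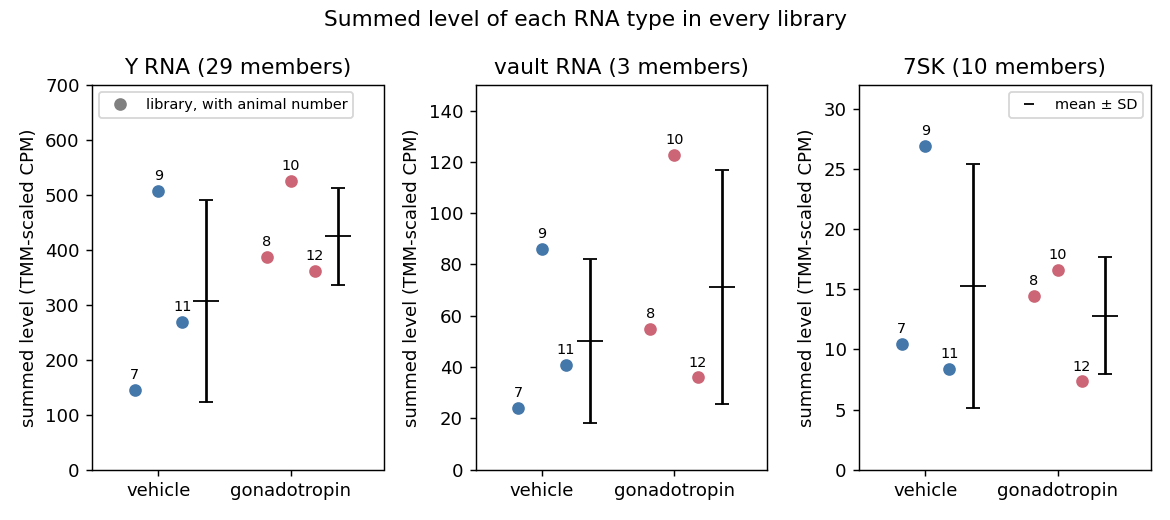
Summed level of the members of each RNA type (vertical axis, TMM-scaled CPM, starting at 0) in vehicle and gonadotropin libraries, with each point labelled by its animal number and the bar giving mean ± SD over 3 libraries. Vehicle 7 is the lowest Y RNA library at 145 CPM, vehicle 9 is among the highest in all 3 panels, and the groups overlap in each.

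Vehicle 7 was the lowest library for many members, and the highest library was less widely shared. Vehicle 7 was the lowest library for 11 of the 15 tested members, against 31.0% of all 717 tested genes. Vehicle 9 was the highest for 6 and gonadotropin 8 for 5, against 28.7% and 13.0% of all tested genes. With 1 copy kept of each near-identical group, vehicle 7 was the lowest for 7 of 11 members and gonadotropin 8 the highest for 5. Vehicle 9 was then the highest for 2 of the 11, against 28.7% of all tested genes. With 11 members these shares cannot be told apart. Counts of small nucleolar RNA genes were likewise lowest in vehicle 7 (17503 CPM of the library total) and highest in vehicle 9 (56922 CPM), and the other 4 libraries lay at 27052 to 45770 CPM. The part of this class balance in the Y RNA and vault RNA levels was not tested.

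The most abundant Y RNA gene was ENSMMUG00000027349, at 113 bases on chromosome 3 (170090690 to 170090802, plus strand, rheMac8). Its levels were 26.1, 98.2 and 52.0 CPM across vehicle 7, 9 and 11 and 67.4, 80.9 and 69.2 CPM across gonadotropin 8, 10 and 12. Vehicle 7 was lowest and vehicle 9 highest, with the gonadotropin libraries between vehicle 11 and vehicle 9. The log2 fold change was 0.30 (SE 0.50, edgeR quasi-likelihood adjusted p = 0.998), and it was -0.03 without vehicle 7.

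The next Y RNA genes by count followed it closely. ENSMMUG00000044985 (chromosome 7, 164955120 to 164955228), ENSMMUG00000026426 (chromosome 7, 136258817 to 136258924) and ENSMMUG00000024397 (chromosome 10, 62287957 to 62288068) had total counts of 947, 942 and 921. Within any library the smaller count of each pair among these 4 copies was at least 81.0% of the larger. Their log2 fold changes were 0.28, 0.29 and 0.30, and they were -0.04, -0.04 and -0.03 without vehicle 7. The 3 genes of the tested table most like ENSMMUG00000027349 over the 6 libraries, by Pearson correlation of log2 CPM, were these same copies (0.997 to 0.998, a description with no test). How reads that map to several places were counted is not given in the sources used here, so these 4 copies may share reads and cannot be taken as separate measurements. They held 64.4% of the counts of all Y RNA members.

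With 1 copy kept of each near-identical group, the Y RNA sum was 69.7, 231 and 119 CPM for vehicle and 195, 298 and 170 CPM for gonadotropin libraries, a log2 ratio of 0.66 with a spread of 0.68. The second such group was a pair of distant genes, ENSMMUG00000024934 (chromosome 14, 19807911 to 19808022) and ENSMMUG00000048410 (chromosome 9, 120783678 to 120783779). In each library the smaller count of the pair was 71.6% to 87.5% of the larger. ENSMMUG00000024934 was at 6.97, 31.4 and 10.0 CPM across vehicle 7, 9 and 11 and at 32.5, 13.1 and 17.0 CPM across gonadotropin 8, 10 and 12. Vehicle 9 and gonadotropin 8 were high, which differs from the order of the 4 abundant copies, in which gonadotropin 8 was the lowest gonadotropin library. The log2 fold changes of the pair were 0.36 (SE 0.63) and 0.21 (SE 0.61), and without gonadotropin 8 they were -0.09 and -0.21.

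On chromosome 3, 3 Y RNA members lay within 26.0 kb of one another. Besides ENSMMUG00000027349 on the plus strand these were ENSMMUG00000028442 (170094114 to 170094215, 102 bases) and ENSMMUG00000028452 (170116562 to 170116657, 96 bases), both on the minus strand. They are the only Y RNA members with another Y RNA member within 50000 bases. The files do not pair any member with the symbol of a single functional Y gene, so no such name is given here.

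The cluster members did not keep a fixed ratio. ENSMMUG00000028452 was at 2.18, 24.9 and 23.6 CPM across vehicle 7, 9 and 11 and at 24.1, 62.0 and 24.0 CPM across gonadotropin 8, 10 and 12. Vehicle 7 was low, gonadotropin 10 was high, and the other 4 libraries lay close together. The log2 fold change was 1.11 (SE 0.78, edgeR quasi-likelihood adjusted p = 0.998), and it was 0.62 without vehicle 7, 0.51 without gonadotropin 10 and 0.06 without both. Relative to ENSMMUG00000027349 its counts were 8.33% in vehicle 7, 25.3% in vehicle 9, 45.4% in vehicle 11 and 35.7%, 76.7% and 34.6% in gonadotropin 8, 10 and 12.

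ENSMMUG00000028442 was uneven across libraries and was picked out after its values were seen. Its raw counts were 0, 90 and 2 in vehicle 7, 9 and 11 and 2, 312 and 6 in gonadotropin 8, 10 and 12. Only vehicle 9 and gonadotropin 10, both from animals of 14 months, held more than a few reads, and together they held 97.6% of its 412 counts. A link to age was not tested. The count of 0 in vehicle 7 allows up to 3 counts, or 1.31 CPM. Because so few libraries held reads, it did not pass the filter on low counts. In a fit without that filter its log2 fold change was 1.82 (SE 2.53, edgeR quasi-likelihood adjusted p = 0.771). Without this gene the log2 ratio of the Y RNA sum was 0.40.

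**Figure D2:**
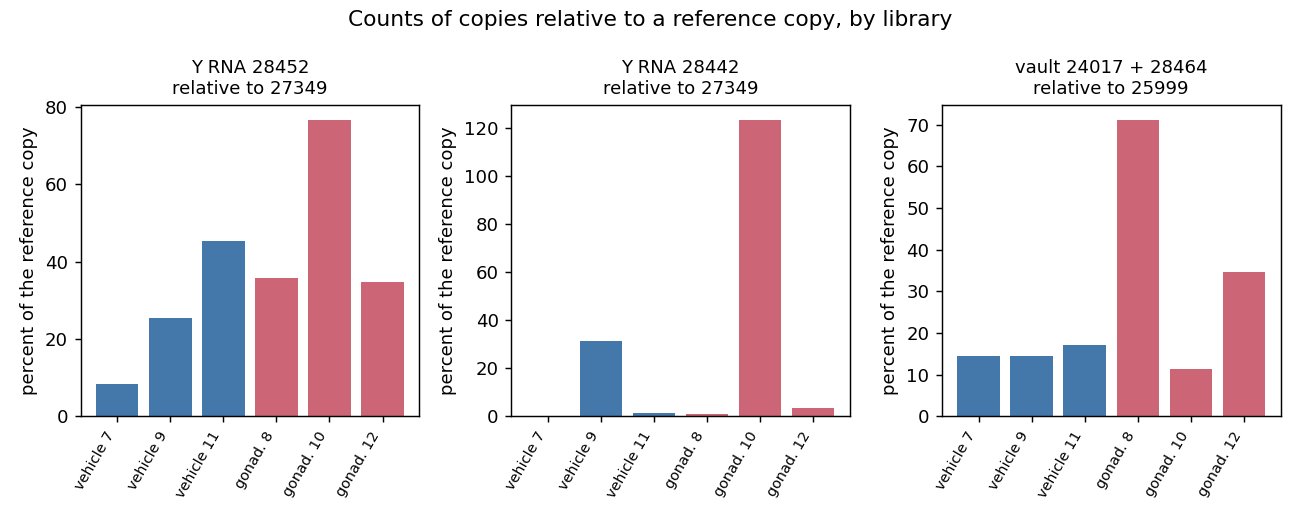
Counts of a copy as a percent of a reference copy (vertical axes, starting at 0) in each library, for 2 Y RNA genes of the chromosome 3 cluster relative to ENSMMUG00000027349 and for a pair of vault genes relative to ENSMMUG00000025999. ENSMMUG00000028442 reaches 123% in gonadotropin 10 and 31.3% in vehicle 9 and is at 3.35% or less elsewhere, and the vault pair is at 71.3% in gonadotropin 8 and 11.3% in gonadotropin 10.

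ENSMMUG00000034543 was the Y RNA gene with an unadjusted p under 0.05, and it was higher in the gonadotropin libraries (3 of 3 above every vehicle library). It is a 95-base gene on chromosome 4 (148767622 to 148767716, minus strand). Its raw counts were 26, 18 and 20 in vehicle 7, 9 and 11 and 57, 63 and 39 in gonadotropin 8, 10 and 12. Here vehicle 7 was the highest vehicle library (11.3 CPM) and vehicle 9 the lowest (6.14 CPM), the reverse of the abundant copies. The group levels were 8.49 ± 2.63 and 19.4 ± 3.95 CPM (SD, n = 3 each). The log2 fold change of 1.19 (SE 0.39) did not pass the edgeR quasi-likelihood test (unadjusted p = 0.0156, adjusted p = 0.85). The adjusted p lay between 0.453 and 0.9996 over 17 alternatives, and the log2 fold change between 0.92 and 1.47 without 1 library. It was the only tested member whose groups did not overlap, where 8.23% of all tested genes did not overlap.

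The remaining tested Y RNA genes had low levels and overlapping groups. ENSMMUG00000026224 had raw counts of 4, 17 and 5 in vehicle and 16, 9 and 17 in gonadotropin, a log2 fold change of 0.68 (SE 0.59). The value for ENSMMUG00000047583 was 0.44 (SE 0.66), or -0.07 without gonadotropin 8. ENSMMUG00000034769 stood at 7.10 ± 3.07 CPM with vehicle and 7.07 ± 3.30 CPM with gonadotropin (SD, n = 3 each), with vehicle 7 and gonadotropin 8 the 2 highest libraries. Its log2 fold change was -0.0044 (SE 0.51) with TMM scaling and 0.21 with library totals.

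**Figure D3:**
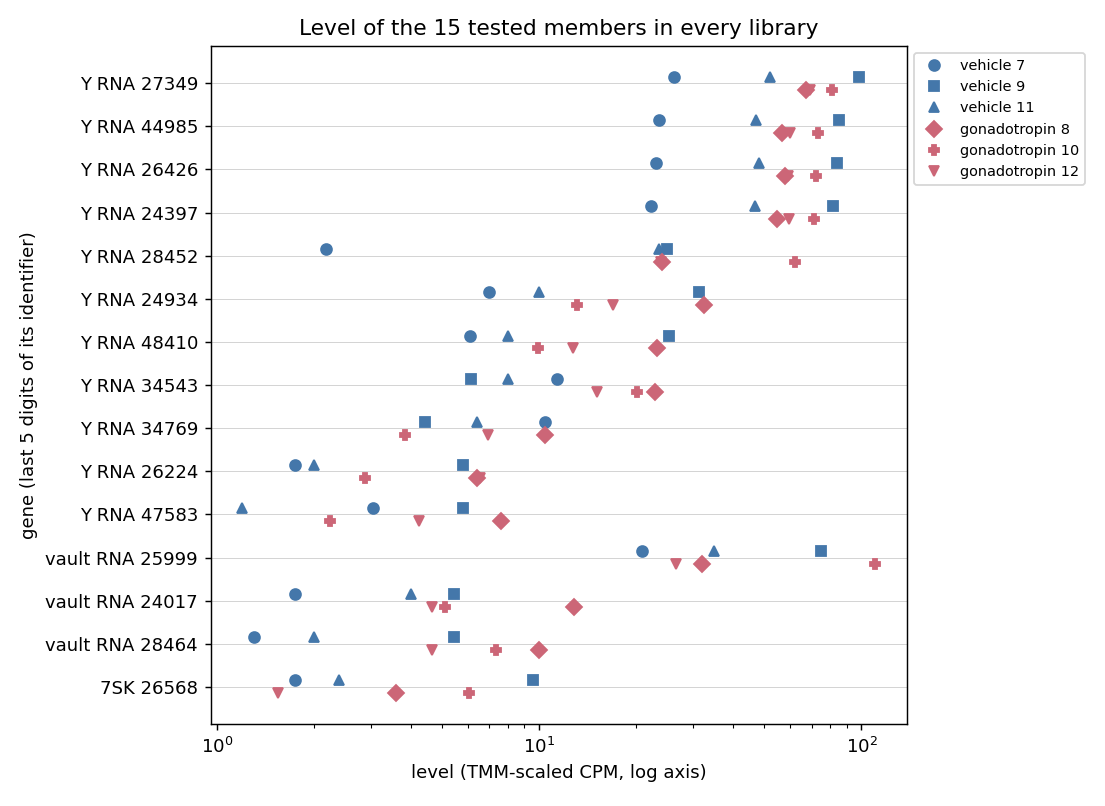
Level of the 15 tested members (horizontal log axis, TMM-scaled CPM) in each library, with vehicle libraries above and gonadotropin libraries below each line. Vehicle 7 is the lowest point for 11 of the 15 members, and ENSMMUG00000034543 is the only one with all gonadotropin libraries above all vehicle libraries.

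All 3 vault RNA members lie on chromosome 6. ENSMMUG00000025999 (133790184 to 133790284, minus strand, 101 bases) held 83.0% of the vault counts. Its levels were 20.9, 75.0 and 34.8 CPM across vehicle 7, 9 and 11 and 32.1, 110 and 26.7 CPM across gonadotropin 8, 10 and 12. Vehicle 9 and gonadotropin 10 were high in both groups and the other libraries lay together. The log2 fold change was 0.37 (SE 0.68, edgeR quasi-likelihood adjusted p = 0.998), and it turned to -0.56 without gonadotropin 10. The genes most like it by Pearson correlation of log2 CPM over the 6 libraries were SNORA29 (0.895), the unnamed gene ENSMMUG00000028676 (0.888) and snoZ30 (0.877), as a description with no test.

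ENSMMUG00000024017 (138478129 to 138478227) and ENSMMUG00000028464 (138485647 to 138485735), both on the plus strand, span 7.61 kb and lie within 4.70 Mb of ENSMMUG00000025999. ENSMMUG00000028464 had raw counts of 3, 16 and 5 in vehicle 7, 9 and 11 and 25, 23 and 12 in gonadotropin 8, 10 and 12. Only vehicle 9 (5.45 CPM) reached into the range of the gonadotropin libraries (4.64 to 10.0 CPM). This gave a log2 fold change of 1.28 (SE 0.58, unadjusted p = 0.0593, edgeR quasi-likelihood adjusted p = 0.998). Without 1 library it ran from 0.97 to 2.05, the highest without vehicle 9.

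ENSMMUG00000024017 had raw counts of 4, 16 and 10 in vehicle and 32, 16 and 12 in gonadotropin. Gonadotropin 8 stood at 12.8 CPM, above all other libraries, which lay between 1.74 and 5.45 CPM. Its log2 fold change was 0.97 (SE 0.58), and it was 0.38 without gonadotropin 8. Counts of this pair relative to ENSMMUG00000025999 were 14.6%, 14.5% and 17.2% in vehicle 7, 9 and 11 and 71.3%, 11.3% and 34.8% in gonadotropin 8, 10 and 12.

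**Figure D4:**
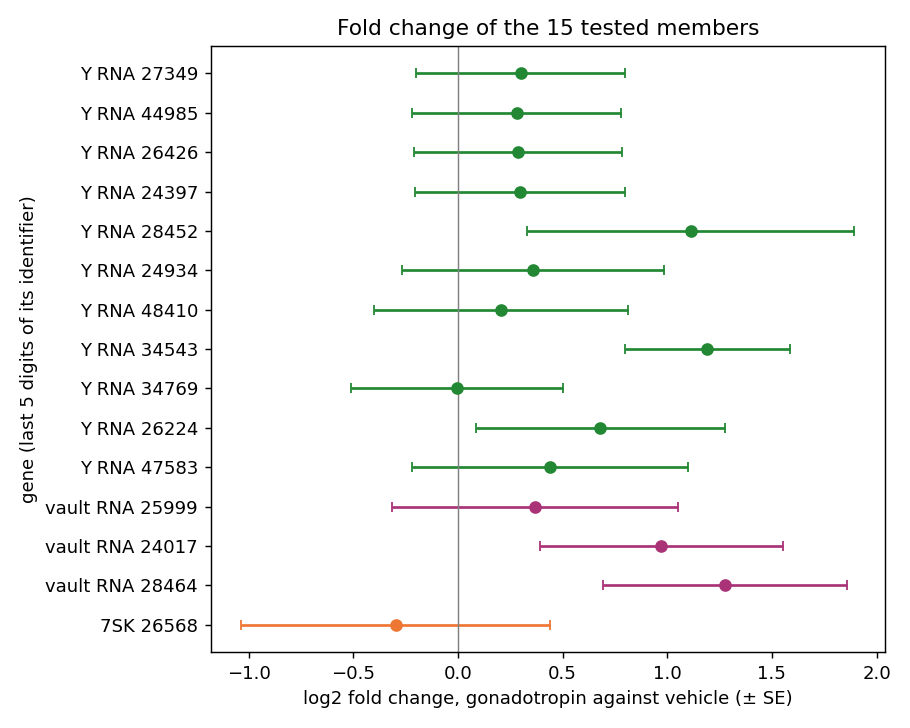
Log2 fold change of gonadotropin against vehicle (horizontal axis) with its standard error for the 15 tested members, Y RNAs in green, vault RNAs in purple and 7SK in orange. Of the 15 values 13 are above 0, and the 3 above 1 are ENSMMUG00000028452, ENSMMUG00000034543 and ENSMMUG00000028464.

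The 7SK gene that passed the filter was ENSMMUG00000026568, with 331 bases on chromosome 4 (53916396 to 53916726, plus strand). It was at 1.74, 9.55 and 2.40 CPM across vehicle 7, 9 and 11 and at 3.61, 6.07 and 1.55 CPM across gonadotropin 8, 10 and 12. Vehicle 9 was highest and gonadotropin 12 lowest, and the groups overlapped. The log2 fold change was -0.30 (SE 0.74, edgeR quasi-likelihood adjusted p = 0.998) and 0.79 without vehicle 9. By the same measure of likeness over the 6 libraries, snoU2-30 (0.961), mml-mir-145 (0.937) and a SNORD113 copy (0.934) were nearest to it.

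The 9 other 7SK members had totals of 11 to 30 counts. ENSMMUG00000024359 (chromosome 5) had counts of 1, 18 and 0 in vehicle 7, 9 and 11 and 4, 7 and 0 in gonadotropin 8, 10 and 12. ENSMMUG00000025694 (chromosome 3) had 1, 14 and 0 in vehicle and 2, 4 and 0 in gonadotropin. In both genes vehicle 9 held most reads and vehicle 11 and gonadotropin 12 held none. ENSMMUG00000035267 (chromosome 12) differed, with 8, 1 and 3 counts in vehicle and 8, 2 and 1 in gonadotropin, so that vehicle 7 and gonadotropin 8, the oldest animals, were high. Whether age had a part in these few counts was not tested. ENSMMUG00000035319 (chromosome 8), with 1, 0 and 6 counts in vehicle and 1, 5 and 7 in gonadotropin, had yet another order. Mean levels were higher in gonadotropin for 4 of the 9.

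Per 100 bases of annotated length, the mean level over 6 libraries was 58.1 CPM for the Y RNA gene ENSMMUG00000027349, 49.5 CPM for the vault gene ENSMMUG00000025999 and 1.25 CPM for the 7SK gene ENSMMUG00000026568. The first pair of values differ by less than the spread over libraries. The other vault genes were at 5.69 and 5.76 CPM per 100 bases. Among Y RNAs ENSMMUG00000028452 was at 27.9, ENSMMUG00000034543 at 14.7 and ENSMMUG00000034769 at 6.50 CPM per 100 bases.

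The 18 Y RNA members that were not tested had totals of 10 to 36 counts apart from ENSMMUG00000028442. No library held more than 11 counts of any of these 17, and 15 of the 18 were at 0 in at least 1 library. Vehicle 7 was at 0 for 9 of the 18. In a fit with no filter, which tested all 42 members, 0 passed the edgeR quasi-likelihood test, where 0.0973% of all 3083 genes were called. An unadjusted p under 0.05 was reached by 3 members, against 2.53% of all genes in that fit, namely ENSMMUG00000028452, ENSMMUG00000034543 and ENSMMUG00000028464. Both shares cover genes of any count, while the members had 10 counts or more, so neither is a like background. For ENSMMUG00000028452 the edgeR quasi-likelihood unadjusted p was 0.0228 in that fit and 0.19 with the filter. Its SE was 0.51 and 0.78 in the same order.

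Over all 42 members, mean levels were higher in gonadotropin for 23 of 29 Y RNAs, 3 of 3 vault RNAs and 4 of 10 7SK genes, where 48.4% of all 3083 genes were higher. The 48.4% covers genes of any count, so it is not a like background. Low members can pass the rule mainly through 1 group, such as ENSMMUG00000023986 (counts 0, 0 and 2 against 3, 2 and 6). Of the 18 untested Y RNAs 13 were higher, and apart from ENSMMUG00000028442 their counts are too low to give a direction. The median log2 fold change of the 15 tested members was 0.36, with 13 values above 0, against -0.02 for all tested genes with 48.1% above 0. The near-identical copies count several times in these numbers, and they move with the vehicle libraries. Without vehicle 7 the median was 0.23, with 10 of 16 tested members above 0, against 49.2% of all genes tested in that fit. Without vehicle 9 the median was 0.96, with 14 of 15 above 0, against 47.7% of all genes tested. The near-identical copies are counted several times here too.

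Of 858 other genes named for 5S ribosomal RNA, U6, U6atac, the signal recognition particle (SRP) RNA, RNase P RNA or RNase MRP RNA, 8 passed the filter and 0 passed the edgeR quasi-likelihood test. No 5S gene (of 288) and no U6 gene (of 259) had enough counts to be tested. RNase P RNA (ENSMMUG00000036452), which trims the 5′ end of transfer RNA precursors, stood at a log2 fold change of 0.077 (SE 0.38), and the value for RNase MRP RNA (ENSMMUG00000038988), which acts in ribosomal RNA processing, was 0.089 (SE 0.73). RNase MRP RNA was at 13.5, 109 and 52.4 CPM across vehicle 7, 9 and 11 and at 89.0, 70.01 and 27.4 CPM across gonadotropin 8, 10 and 12, with vehicle 7 lowest and vehicle 9 highest as in the abundant Y RNA copies. By the edgeR quasi-likelihood test 3 SRP copies, ENSMMUG00000042107, ENSMMUG00000046030 and ENSMMUG00000048089, had an unadjusted p under 0.05 with lower values. By that test 4.46% of all 717 tested genes had an unadjusted p under 0.05. ENSMMUG00000046030 and ENSMMUG00000048089 had totals of 1157 and 1156 counts, may share reads and cannot be taken as separate measurements. Reads of the 3 copies came mostly from vehicle 9, and without it their log2 fold changes were -0.03, -0.03 and -0.05. DESeq2 and limma voom gave 0 of the 8 an unadjusted p under 0.05, and the edgeR exact test gave 4. For these tools the share over all genes is not given.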

How the data were processed

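The authors deposited a table of raw counts per small RNA gene, made with HTSeq 0.6.1p1 on rheMac8 after cutadapt 1.9.1 and Bowtie 1.1.2, per the submitters' processing notes. How reads with several alignments were handled, and the strand setting, are not given in the sources used here. Library preparation is described in more than 1 way: the titles name Ion Torrent and the extraction protocol an Illumina kit, per the labels. The authors' deposited edgeR table gives log2 fold changes, p-values and CPM, used for comparison only. A search of the deposited miRNA counts (701 names) for miR-886, miR-1975 and miR-1979, names once given to pieces of vault or Y RNAs, matched 0 names.

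Counts were filtered with filterByExpr (minimum count 10), scaled by TMM and tested with the robust quasi-likelihood test of edgeR 4.0.16 in R 4.3.3 on all 717 genes passing, without covariates, with Benjamini-Hochberg adjustment. SEs are approximate, taken as the size of the log2 change over the square root of the F statistic. Alternatives used DESeq2 1.42.0 and limma 3.58.1 among others. Near-identical copies were members of 100 counts or more whose smaller count was at least 70% of the larger in every library. Named genes were the 5 most abundant per type, those with the smallest p, and any that stood apart. Members and lists were chosen with earlier results of these data known. The members were selected on their summed count over both groups, not on the contrast, but members near 10 counts can pass mainly through 1 group. Labels give each animal its own number, so replicates are animals.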

Additional observations from a re-analysis of the deposited data

How the results depend on the processing

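No paired analysis was possible because the groups share no animal numbers in the labels, so only a pairing by age could be tried (animals 7 with 8, 9 with 10 and 11 with 12), which no label gives. That block called 0 of all 717 tested genes, so 0 members called says nothing on the members. Among the members the lowest edgeR quasi-likelihood adjusted p was 0.994, and 1 had an unadjusted p under 0.05. The share over all genes is not given for that block, so this count has no background. No member and no other polymerase III transcript was called by the 17 alternatives, which covered scaling, filter, test tool, age, pairs by age, identical rows and leaving out libraries; pairs by age, leaving out vehicle 7 and gonadotropin 10 together, keeping 1 copy of near-identical groups and leaving out ENSMMUG00000028442 were chosen after seeing the data. The 17 alternatives called only 0 to 3 of all genes tested in each, so the lack of calls is not particular to the members. Of 255 recomputed log2 fold changes of the 15 tested members, 233 kept their sign and 22 turned, and 5 members never turned. Without vehicle 7 and gonadotropin 10 together, the values were -0.037 for ENSMMUG00000027349, -0.087 for ENSMMUG00000044985, -0.077 for ENSMMUG00000026426, -0.076 for ENSMMUG00000024397, -0.80 for ENSMMUG00000025999 and 0.75 for ENSMMUG00000034769. The last was also 0.21 with library totals and 0.073 with age as a covariate. Without 1 library, values ran from -0.025 to 0.84 for ENSMMUG00000027349, -0.041 to 0.78 for ENSMMUG00000044985, -0.039 to 0.77 for ENSMMUG00000026426, -0.032 to 0.79 for ENSMMUG00000024397, -0.095 to 1.23 for ENSMMUG00000024934, -0.21 to 1.04 for ENSMMUG00000048410, -0.38 to 0.39 for ENSMMUG00000034769, -0.069 to 1.05 for ENSMMUG00000047583, -0.56 to 0.96 for ENSMMUG00000025999 and -0.83 to 0.79 for ENSMMUG00000026568. The cause of these turns was not tested. The log2 ratio of the summed level moved from its main value by less than the spread between libraries, to 0.16 to 0.98 for Y RNAs, -0.13 to 1.08 for vault RNAs and -0.52 to 0.36 for 7SK without 1 library. Scaling moved the percent of tested genes with a positive value from 48.1% to 58.9% with library totals, and 14 of the 15 members were then above 0. Apart from ENSMMUG00000028442, whose reads came from few libraries, the 26 other members that did not pass the filter hold 10 to 36 counts, too few for a difference to be judged.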
